A study of Mus musculus with 11 samples.

Results

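The imprinted domain between Dlk1 and Dio3 on mouse chromosome 12 was followed through 6 of the 39017 genes in the count table. They were chosen by their place in the domain and by the counts of these libraries, knockout against control within each tissue, which had been seen when the choice was made. Dlk1, Rtl1 and Dio3 code for proteins and are expressed mainly from the paternal chromosome, whereas Meg3, Rian and Mirg are noncoding RNAs made from the maternal chromosome. Allele of origin cannot be read from these counts, so "paternal" and "maternal" are used as names from background knowledge.

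In an imprinted domain, DNA methylation set in the germ line leaves the copies from the father and the mother with different active genes. In the mouse, the maternal transcripts of this domain carry many hairpins from which the nuclease Dicer cuts mature microRNAs (miRNAs), and hairpins lying antisense to Rtl1 give miRNAs known to direct cleavage of the Rtl1 transcript. The noncoding RNAs of the domain are abundant in brain, and its miRNAs have been studied in neurons for roles in synapse and dendrite growth.

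Polyadenylated RNA was sequenced in bulk from neocortex and from the hippocampal CA1 region of mice aged 13 to 14 weeks. Knockout (KO) mice carried Camk2a-Cre and were Dicer flox/flox. The genotype behind the label "control" is not given in the sources used here. The Camk2a promoter drives Cre mainly in excitatory neurons of the forebrain after birth, so a tissue library mixes cells that lose Dicer with others that keep it. The neocortex groups held 3 KO males (animals D5130, D5132 and D5133) and 3 control males (D5129, D5134 and D5135). The CA1 groups held 2 KO males (D5130 and D5133) and 3 controls, of which D5134 and D5135 were male and D5138 was female. In these bulk samples, fewer cells of a type and less RNA per cell cannot be told apart.

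The 6 neocortex libraries held 43144097 to 58329441 gene reads and the 5 CA1 libraries held 24806581 to 35684618. Neocortex RNA went through a stranded kit and CA1 RNA through an unstranded one. Reads of Dicer1, the targeted gene, differed between KO and control by -0.04 on the log2 scale (SE 0.06) in neocortex and by -0.003 (SE 0.068) in CA1, and a count over the whole gene does not show whether a floxed exon was lost. The 6 neocortex libraries fell into 2 sets by the make-up of their spike-in (ERCC) reads, D5129, D5130 and D5132 in set 1 and D5133, D5134 and D5135 in set 2. Animal D5134, labelled a male control, had 70.2 and 73.5 CPM (reads scaled to a common library size) over 4 Y-linked genes in neocortex and CA1, against 152 to 187 CPM in the other male libraries. The CA1 library labelled D5133, a male KO, held 20.9 CPM of the female-specific RNA Xist, against 610 CPM in the female D5138 and 0.731 to 3.28 CPM in the other CA1 males.

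The domain's order on the plus strand of GRCm38 begins with Dlk1 at chr12:109452823-109463336, a membrane protein related to Notch ligands. Meg3, a long intergenic noncoding RNA, follows at chr12:109541001-109571722. Rtl1, a protein derived from a retrotransposon, lies on the minus strand at chr12:109589194-109600330. Rian, the host of a cluster of small nucleolar RNAs, lies at chr12:109603940-109661025 and Mirg, the host of a miRNA cluster, at chr12:109729764-109749458. Dio3, the enzyme that inactivates thyroid hormone, closes the domain at chr12:110279068-110280708. The floxed gene, Dicer1, is on the same chromosome at chr12:104687742-104751952, and 4.70 Mb separate its end from the start of Dlk1.

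**Figure D1:**
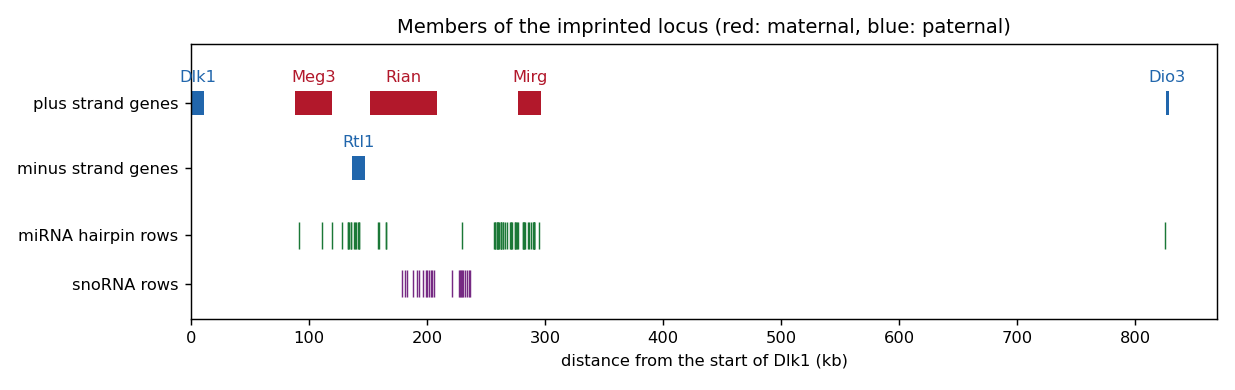
Positions of the 6 genes, of miRNA hairpin rows and of small nucleolar RNA rows of the count table, as distance in kb from the start of Dlk1. Meg3, Rian and Mirg lie in line on the plus strand, Rtl1 lies opposite to them, and most hairpins fall around Rtl1 and Mirg.

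RefSeq (GRCm38.p6) places 61 miRNA hairpins between Dlk1 and Dio3, 57 of them on the plus strand, which is the strand of Meg3, Rian and Mirg. These give 114 mature entries with 113 distinct sequences and 104 distinct seeds. The seed, bases 2 to 8, is the stretch that mainly decides which transcripts a miRNA pairs with. By position, 6 plus-strand hairpins lie inside the Rtl1 interval, 25 between Rian and Mirg and 14 inside Mirg.

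The plus-strand miRNAs inside the Rtl1 interval are shown because they lie antisense to a protein gene of the domain. All 11 mature miRNAs of these hairpins have a full complement in the 6358-base Rtl1 transcript (GENCODE M21), and all 11 sites lie in its coding sequence. Each site is the opposite strand of its own miRNA, so the full complement follows from their position. Capitals mark the seed in each miRNA and the complement of the seed in each Rtl1 site.
miR-127-3p: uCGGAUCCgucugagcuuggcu
Rtl1 site of miR-127-3p: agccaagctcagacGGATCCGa
miR-434-3p: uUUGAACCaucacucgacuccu
Rtl1 site of miR-434-3p: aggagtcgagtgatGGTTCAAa
miR-433-3p: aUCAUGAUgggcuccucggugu
Rtl1 site of miR-433-3p: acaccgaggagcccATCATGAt
miR-431-5p: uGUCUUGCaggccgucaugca
Rtl1 site of miR-431-5p: tgcatgacggcctGCAAGACa
miR-136-5p: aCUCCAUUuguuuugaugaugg
Rtl1 site of miR-136-5p: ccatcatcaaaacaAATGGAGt
The site of miR-127-3p is at chr12:109592888-109592909 and that of miR-136-5p at chr12:109595331-109595352, both written here on the minus strand, the strand of Rtl1.

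The cluster between Rian and Mirg and inside Mirg is shown for its repeated seeds. Across the domain 9 seeds are shared, each by a pair of mature miRNAs, and these are the pairs that involve miR-379, miR-411 and miR-410, with capitals again marking the seed.
miR-379-5p: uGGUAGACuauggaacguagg
miR-1193-5p: uGGUAGACcggugacguaca
miR-379-3p: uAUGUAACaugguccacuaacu
miR-411-3p: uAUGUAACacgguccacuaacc
miR-410-5p: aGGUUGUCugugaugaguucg
miR-494-5p: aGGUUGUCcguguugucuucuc
The first pair reads GGUAGAC, the second AUGUAAC and the third GGUUGUC. Inside Mirg lie miR-134-5p, studied at synapses, and miR-485-3p. Each shares its seed with no other mature miRNA of the domain.
miR-134-5p: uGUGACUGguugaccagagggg
miR-485-3p: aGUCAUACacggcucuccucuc
Mature miRNAs are too short to be measured by these polyadenylated RNA libraries, so no level of a mature miRNA is given.

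The domain's genes were expressed at very different levels, and the maternal RNAs led in every group. Per kilobase of exon (CPM per kb), Meg3 averaged 255 ± 10.4 in neocortex KO and 226 ± 14.4 in neocortex control libraries (SD, n = 3 each). Rian averaged 42.8 ± 1.18 CPM per kb in neocortex KO and 40.4 ± 2.39 in neocortex control, and Mirg 7.22 ± 0.132 in neocortex KO and 6.28 ± 0.410 in neocortex control. In CA1 Meg3 averaged 237 ± 1.35 CPM per kb in KO and 222 ± 18.0 in control, Rian 34.3 ± 3.13 in KO and 34.2 ± 2.76 in control, and Mirg 5.87 ± 0.392 in KO and 4.54 ± 0.438 in control (SD, n = 2 KO and 3 control). The order Meg3, Rian, Mirg held in each of the 11 libraries, with no overlap between the 3 genes.

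The paternal genes lay far lower per kilobase. In neocortex Dlk1 averaged 0.262 ± 0.0372 CPM per kb in KO and 0.117 ± 0.0233 in control libraries, Dio3 0.203 ± 0.0817 in KO and 0.194 ± 0.0713 in control, and Rtl1 0.0287 ± 0.00778 in KO and 0.0218 ± 0.00179 in control (SD, n = 3 each). Dlk1 and Dio3 overlapped with each other in both neocortex groups, and Rtl1 was below both. In CA1 all paternal levels were higher: Dlk1 averaged 2.59 ± 0.347 CPM per kb in KO and 1.11 ± 0.481 in control, Rtl1 1.76 ± 0.236 in KO and 1.41 ± 0.270 in control, and Dio3 1.20 ± 0.139 in KO and 0.784 ± 0.552 in control (SD, n = 2 KO and 3 control). The order Dlk1, Rtl1, Dio3 held in the 2 CA1 KO libraries, and in CA1 controls the ranges of the 3 overlapped. The CA1 kit was unstranded, so the Rtl1 count there can include reads from the opposite, maternal strand.

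By reads, Meg3 stood among the most abundant RNAs of both tissues. It ranked 8 in neocortex KO and 9 in neocortex control, and 6 in CA1 KO and 7 in CA1 control, among 39017 genes ordered by mean CPM. The 6 genes together took 0.531% to 0.570% of gene reads in neocortex KO libraries, 0.466% to 0.517% in neocortex control libraries, 0.501% to 0.510% in CA1 KO libraries and 0.428% to 0.515% in CA1 control libraries. Meg3 gave 83.3% to 86.6% of them in every library.

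**Figure D2:**
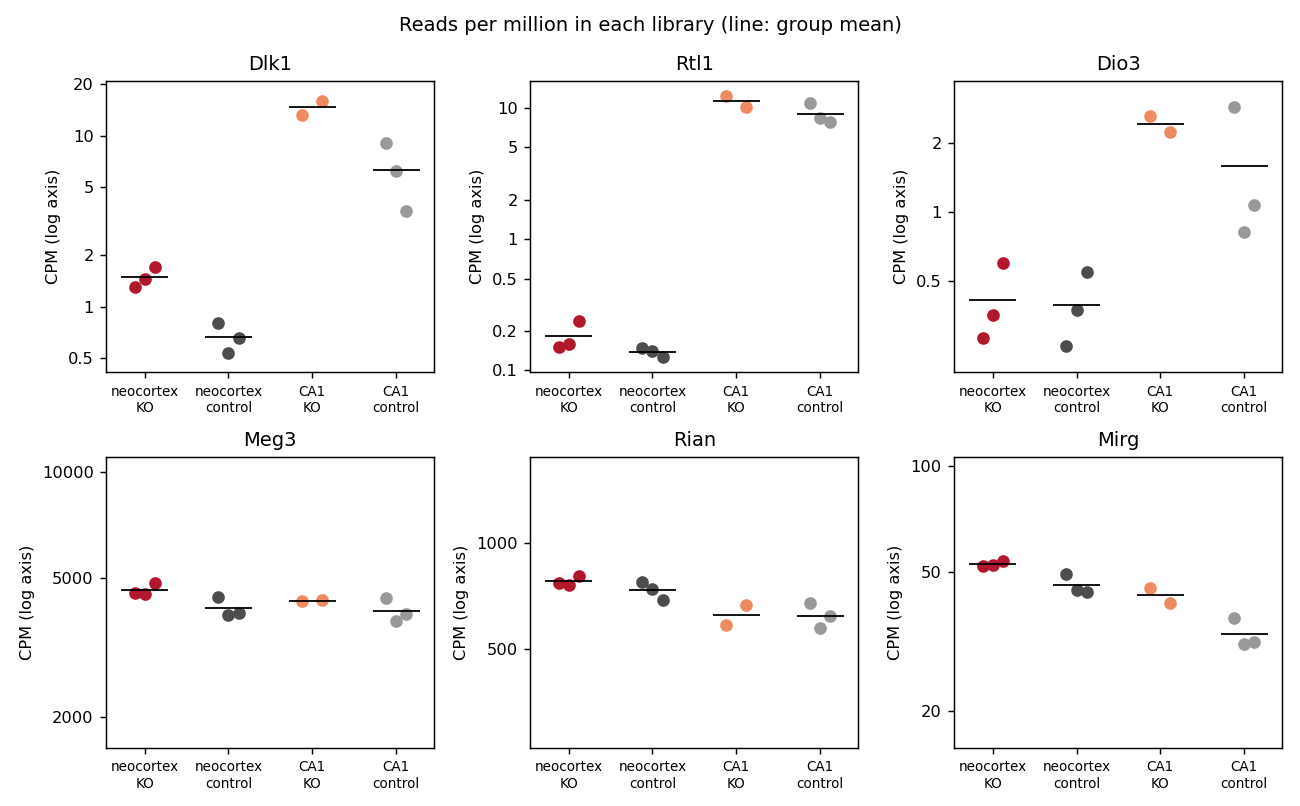
CPM of each gene in every library on log axes, with points for libraries and lines for group means. Every KO library lies above every control library of its tissue for Dlk1 and for Mirg, whereas Rian overlaps in both tissues.

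The comparison of KO with control asks how the transcriptome of each tissue differed when Dicer had been deleted in forebrain excitatory neurons. Among the 6 genes the paternal Dlk1 showed the largest difference in both tissues, the maternal RNAs stood 0.01 to 0.37 higher in KO on the log2 scale, and none of the fitted values of the 6 was negative. Among all fitted rows of the table from Dlk1 to Dio3, small RNA rows included, 4 of 14 were negative in neocortex and 4 of 29 in CA1. Because the genes were chosen with these results known, their KO values are given as a description, with fitted log2 fold changes, standard errors (SE) and the count past the threshold (edgeR's quasi-likelihood test, adjusted p under 0.05 over all genes), and with no test of their own. The libraries of a group carry separate animal numbers. Every SE and p comes from edgeR's fit, which combines the spread between these few animals with a trend over all genes fitted.

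In neocortex 5 of the 6 genes had enough reads to be fitted and 1 of them, Dlk1, passed upward, where 1.51% of the 16971 genes fitted did so. None passed downward, where 1.2% did, and 2.71% passed in either direction. In CA1 all 6 were fitted and 1, Mirg, passed upward, against 2.47% of 18274 genes, and none passed downward, against 1.41%, with 3.89% in either direction. Every KO library was above every control library for Dlk1, Meg3 and Mirg in neocortex, against 11.6% of all genes, and for Dlk1 and Mirg in CA1, against 17.4%. In either direction 24% of genes did not overlap in neocortex and 33.7% in CA1. The median log2 fold change over the fitted of the 6 genes was 0.17 in neocortex and 0.35 in CA1, with 0.002 and -0.0004 over all genes. Over all fitted rows from Dlk1 to Dio3 it was 0.08 in neocortex and 0.26 in CA1.

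Dlk1 measured 1.30, 1.44 and 1.71 CPM in the neocortex KO animals D5130, D5132 and D5133, against 0.801, 0.538 and 0.654 CPM in the controls D5129, D5134 and D5135. These values rest on 69, 73 and 100 reads in KO and 43, 23 and 31 reads in control libraries. All 3 KO animals lay above all 3 controls, and the fitted difference was 1.15 on the log2 scale (SE 0.25), a 2.21-fold higher level in KO.

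In CA1 Dlk1 measured 13.2 and 16.0 CPM in the KO animals D5130 and D5133, against 9.05 CPM in control D5134, 6.22 in D5135 and 3.61 in D5138. The groups again did not overlap, although the controls spread over more than the gap to the KO libraries, and the fitted difference of 1.23 (SE 0.36) did not pass the threshold. The estimates of the tissues were close: the KO effect in CA1 minus that in neocortex was 0.09 (SE 0.44), a difference that was not tested.

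The Dlk1 call in neocortex was lost when any 1 of the 6 libraries was left out, with log2 fold changes of 1.02 to 1.31 in those 6 fits. It was also lost with the spike-in set as a term in the fit and with ERCC scaling, and DESeq2 gave Dlk1 no adjusted p in neocortex. With no filter on low counts it passed, at 1.15 (adjusted p = 0.0094 by edgeR). In CA1 the range was 0.94 to 1.57, and Dlk1 passed in 2 of 5 such fits, those without control D5134 and without control D5138, the only female. It passed in CA1 too with no filter on low counts. Within the spike-in sets, the log2 ratio of KO to control was 0.77 in set 1, with 2 KO and 1 control, and 1.52 in set 2, with 1 KO and 2 control.

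Rtl1 was close to absent from the neocortex reads, with 8, 8 and 14 reads in KO and 8, 6 and 6 in control libraries, too few to be fitted. In CA1 it measured 12.3 and 10.2 CPM in the KO animals D5130 and D5133, against 10.9 CPM in control D5134, 8.28 in D5135 and 7.73 in D5138. The highest control lay above the lower KO library, so the groups overlapped at a log2 difference of 0.33 (SE 0.16). The CA1 kit was unstranded, so reads from the opposite strand can count toward these values. The Rtl1 transcript carries the printed sites of miR-127-3p and miR-434-3p, and the part of these miRNAs in its values was not tested.

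Dio3 measured 0.282, 0.355 and 0.599 CPM in neocortex KO and 0.261, 0.375 and 0.548 CPM in neocortex control libraries, from 14 to 35 reads each. The groups covered the same range, with a log2 difference of 0.08 (SE 0.41) that turned to -0.30 without KO D5133 and to -0.16 without control D5129. In CA1 it measured 2.63 and 2.23 CPM in KO and 2.88, 0.819 and 1.08 CPM in control libraries, and the highest value of all belonged to control D5134. The log2 difference was 0.65 (SE 0.46). Without D5134 it was 1.35 and passed the threshold.

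Meg3 measured 4520, 4474 and 4821 CPM in the neocortex KO animals D5130, D5132 and D5133, against 4392, 3922 and 3962 CPM in the controls D5129, D5134 and D5135. The groups did not overlap, but KO D5132 and control D5129 lay close together, and the log2 difference of 0.17 (SE 0.06) did not pass. In CA1 it measured 4274 and 4309 CPM in KO, against 4380, 3751 and 3926 CPM in control libraries, with overlap and a log2 difference of 0.09 (SE 0.06).

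Rian measured 774, 764 and 805 CPM in neocortex KO and 777, 740 and 690 CPM in neocortex control libraries, a log2 difference of 0.09 (SE 0.05) with overlap. In CA1 it measured 586 and 666 CPM in KO and 675, 574 and 620 CPM in control libraries, a log2 difference of 0.01 (SE 0.07). Of the 6 genes it differed least in CA1, and its CA1 value was -0.10 without KO D5133 and -0.05 without control D5135.

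Mirg measured 52.0, 52.3 and 53.8 CPM in the neocortex KO animals, against 49.2, 44.4 and 43.7 CPM in the controls D5129, D5134 and D5135, without overlap and with a log2 difference of 0.20 (SE 0.06). In CA1 it measured 44.8 and 40.8 CPM in the KO animals D5130 and D5133, against 36.8 CPM in control D5134, 31.1 in D5135 and 31.4 in D5138. Both KO libraries lay above the 3 controls, and the difference of 0.37 (SE 0.09), a 1.30-fold higher level in KO, passed the threshold. It passed in 1 of the 5 fits with a library left out, the one without D5134, with log2 values of 0.30 to 0.46 in all 5. With all libraries Mirg also passed in CA1 by DESeq2 (adjusted p = 0.014) and with no filter on low counts (adjusted p = 0.0010 by edgeR). Mirg carries the printed miR-134-5p and miR-485-3p, among other hairpins, in its interval.

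**Figure D3:**
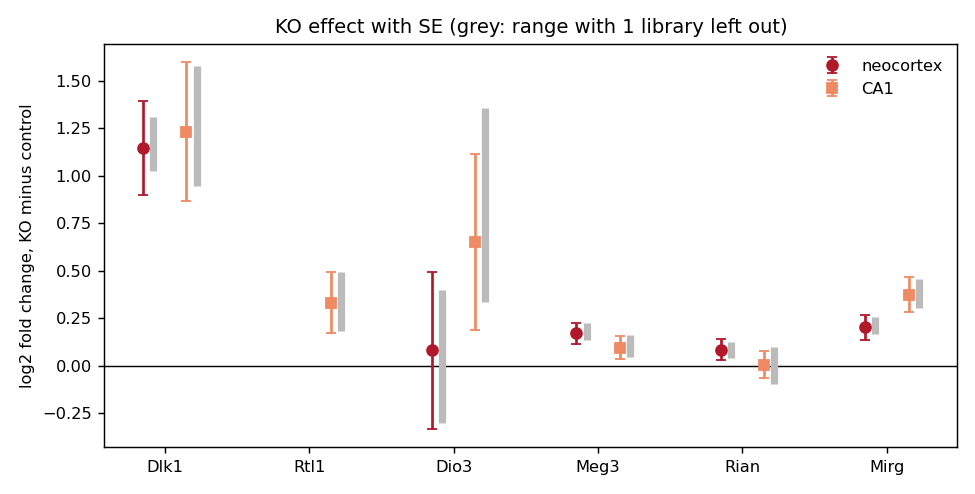
Fitted log2 fold change, KO minus control, with its SE (bars) for each gene in neocortex (circles) and CA1 (squares), and the range over fits with 1 library left out (grey). Dlk1 stands highest in both tissues at 1.15 and 1.23, and Rtl1 has no neocortex value.

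Single libraries stood at the edge of their group for the whole domain. Neocortex KO D5133 had the highest CPM of the 6 neocortex libraries for all 6 genes, and CA1 control D5134 had the highest CPM of the 3 CA1 controls for all 6. D5133 is in spike-in set 2, and within set 1 the log2 ratios of KO to control were 0.03 for Meg3, -0.02 for Rian and 0.08 for Mirg, against 0.29, 0.17 and 0.29 in set 2. Set 2 held 1 KO library and set 1 held 1 control library, so neither ratio has replicates on both sides. Without D5134, 3 of the 6 genes (Dlk1, Dio3 and Mirg) passed in CA1, where 732 of 18111 genes fitted did so. Without control D5138 only Dlk1 of the 6 passed, and without control D5135 none did.

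The ratio of the maternal Meg3 to the paternal Dlk1 also differed between KO and control. Of the other paternal genes, Dio3 overlapped between the groups in both tissues, and Rtl1 in CA1. The CPM ratio of Meg3 to Dlk1 was 3487, 3106 and 2818 in the neocortex KO animals D5130, D5132 and D5133, against 5483, 7284 and 6060 in the controls D5129, D5134 and D5135. It was 323 and 269 in CA1 KO, against 484, 603 and 1087 in CA1 control libraries. The ratio was lower in every KO library than in every control library of its tissue. It restates the Dlk1 difference against an abundant neighbour, and gene lengths cancel because the same 2 genes are compared throughout. Within the maternal transcripts the ratio of Meg3 to Mirg was 95.3 and 106 in CA1 KO, against 119, 121 and 125 in CA1 control libraries, and 85.6 to 89.7 in neocortex KO against 88.3 to 90.7 in neocortex control libraries.

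Marker genes of other cells differed between KO and control in the same tissue dissections. Calls on the marker lists here and below stand beside those over all genes fitted. In neocortex 1.51% of all genes passed upward and 1.2% downward, and in CA1 2.47% and 1.41%. Single genes did not overlap between the groups in 24% of cases in neocortex and 33.7% in CA1. In CA1, 6 of 15 meningeal fibroblast markers rose and none fell (median log2 fold change 1.01), and their summed level was 273 to 315 CPM in KO against 129 to 148 CPM in control libraries, with none of them at 0 in a group. The markers that rose included the collagen gene Col1a2, by 1.30 (SE 0.19; adjusted p = 0.0084 by edgeR), and Crabp2, a retinoic acid binding protein, by 2.01 (SE 0.33; adjusted p = 0.0050). In CA1 the count was 3 without KO D5130, and 4 to 7 without any other library. In neocortex none of the 15 passed in edgeR, none had an unadjusted p under 0.05 and DESeq2 called 0, and the sums were 161 to 207 CPM in KO and 126 to 242 CPM in control libraries. The highest control sum belonged to D5135, and without it 3 of the 15 rose. The part of these cells in the Dlk1 and Mirg values was not tested.

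Glial and neuronal markers also differed, and 2 of 12 excitatory neuron markers fell in each tissue (1 in neocortex without KO D5132 or D5133, and 4 in CA1 without control D5134). Microglia markers summed to 458 to 505 CPM in KO and 441 to 468 CPM in control libraries of neocortex, with overlap. In CA1 they summed to 410 to 476 CPM in KO and 319 to 339 CPM in control libraries. Of 14 microglia markers 7 rose in neocortex, where DESeq2 called 5 higher and 1 lower, and 9 rose in CA1. In CA1 8 of 12 oligodendrocyte markers fell. Leaving out 1 library gave 2 to 6 and 6 to 8 microglia calls, fewest without KO D5133 in both tissues, and 4 to 9 oligodendrocyte calls, fewest without KO D5133. Excitatory neuron markers summed to 6834 to 6919 CPM in KO and 7593 to 7722 CPM in control libraries of neocortex, and to 7267 to 7698 CPM in KO and 7924 to 8798 CPM in control libraries of CA1. CA1 pyramidal markers, which identify the region, summed to 467 to 512 CPM in CA1 KO and 644 to 691 CPM in CA1 control libraries, above the 320 to 384 CPM of all neocortex libraries. In CA1 3 of these 9 fell, with 2 or 3 when 1 library was left out (2 without D5130, D5134, D5135 or D5138). In neocortex 1 fell, with none without D5130, D5132 or D5133 and 2 without D5135. Astrocyte markers summed to 3353 to 3577 CPM in KO and 2781 to 2856 CPM in control libraries of CA1, where 3 of 12 rose (2 without D5130 or D5134, and 1 without D5133, D5135 or D5138), and to 2828 to 3149 CPM in KO and 2682 to 2790 CPM in control libraries of neocortex. Choroid plexus markers summed to 149 to 152 CPM in CA1 KO and 175 to 209 CPM in CA1 control libraries. Of the 10 fitted in CA1, 1 rose (Kcnj13) and 1 fell (Enpp2), with a median log2 fold change of -0.06. Much of the sum was Enpp2, which averaged 122 ± 3.19 CPM in CA1 KO and 166 ± 16.1 CPM in CA1 control libraries (SD). With 1 library left out, Enpp2 passed in 3 of 5 fits and Kcnj13 in 1.

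Lists of vessels and of neighbouring regions differed too. In neocortex 3 of 11 striatum markers fell, with a median log2 fold change of -0.43, and they summed to 171 to 181 CPM in KO and 215 to 268 CPM in control libraries, without overlap. Among them the opioid precursor gene Penk averaged 35.1 ± 2.81 CPM in KO and 61.2 ± 10.2 CPM in control libraries (SD, n = 3 each), a log2 difference of -0.80 (SE 0.12; adjusted p = 0.014 by edgeR). Leaving out 1 library gave 0 to 2 calls on this list, none without KO D5133, 1 without D5132 or D5134 and 2 without any other. In CA1 1 of 11 striatum markers fell, with sums of 87.9 to 95.7 CPM in KO and 105 to 113 CPM in control libraries. Of 12 hypothalamus and thalamus markers in CA1 2 rose and 1 fell (median 0.20), with sums of 149 to 152 CPM in KO and 131 to 145 CPM in control libraries. Leaving out 1 library gave 1 to 3 higher, with 1 without D5130, D5133 or D5138 and 3 without D5135, and the fall was lost without D5130 or D5133. Of 16 endothelial and mural markers 3 rose in CA1, and 2 without D5130, D5133, D5135 or D5138. They summed to 421 to 423 CPM in KO and 338 to 382 CPM in control libraries of CA1. The part of any of these cells and regions in the values of the domain was not tested.

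The genes around the domain were compared in the same fits. From 1 Mb before Dlk1 to 1 Mb after Dio3, 37 of 131 rows of the table were fitted in neocortex and 54 in CA1. Besides Dlk1, the dynein heavy chain gene Dync1h1 passed in neocortex, by 0.19 (SE 0.04; adjusted p = 0.0446 by edgeR), and besides Mirg no gene passed in CA1. Between Dicer1 and Dlk1, 27 of 67 rows were fitted in neocortex, where the poly(A) polymerase gene Papola passed, by 0.20 (SE 0.05; adjusted p = 0.0432 by edgeR), and none of 28 passed in CA1. The median log2 fold change of that interval was -0.07 in neocortex and -0.05 in CA1. The genetic background of the chromosome around the floxed allele is not given in the sources used here, and its part in the values was not tested.

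**Figure D4:**
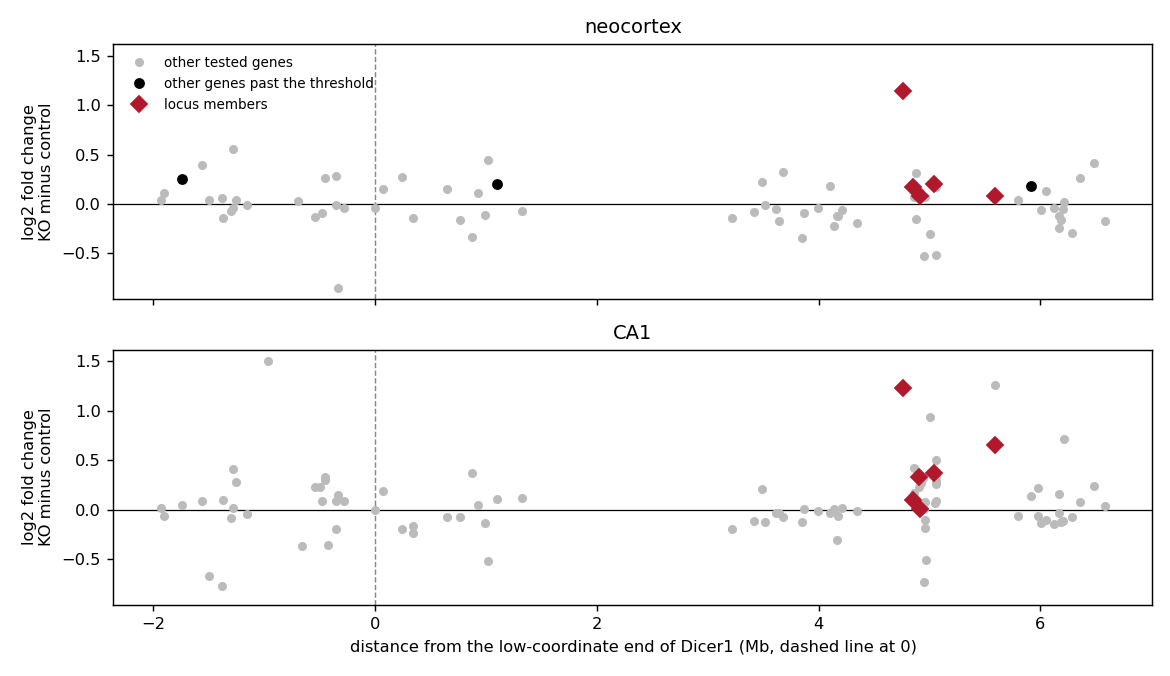
Fitted log2 fold changes, KO minus control, of genes around Dicer1 and the domain, by distance in Mb from the low-coordinate end of Dicer1, with the domain's genes as red diamonds and other genes past the threshold in black. The point of Dlk1 is at 1.15 in neocortex and 1.23 in CA1.

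Tissue gave a contrast that the choice of genes had not used. In control mice the 3 paternal genes were higher in CA1 than in neocortex and 2 of the 3 maternal RNAs were lower, and the same 5 genes differed in the same directions in KO mice. All 5 passed in edgeR's fit of the 11 libraries, but so did 51% of 19256 genes in control mice (28% higher and 23% lower in CA1) and 42.7% in KO mice (24.8% higher and 17.9% lower). Every CA1 library lay above or below every neocortex library for the same 5 genes in control mice and for all 6 in KO mice, against 57.9% and 63.3% of all genes. Kit, strandedness and sequencing run differ between the tissues and cannot be told apart from tissue. The 4 animals with both tissues gave a library of each, and the joint fit treated these libraries as separate.

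Dlk1 averaged 6.18 ± 2.67 CPM in CA1 and 0.676 ± 0.137 CPM in neocortex of control mice (SD, n = 3 each). The log2 difference was 3.16 (SE 0.30; adjusted p = 6.4e-07 by edgeR), and every CA1 library lay above every neocortex library. In KO mice Dlk1 averaged 14.3 ± 1.94 CPM in CA1 (n = 2) and 1.50 ± 0.214 CPM in neocortex (n = 3), a log2 difference of 3.25 (SE 0.28; adjusted p = 2.6e-07 by edgeR). Dio3 was higher in CA1 by 1.94 in control mice (SE 0.45; adjusted p = 0.0021) and by 2.50 in KO mice (SE 0.47; adjusted p = 3.8e-04), both by edgeR.

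Meg3 averaged 3950 ± 323 CPM in CA1 and 4161 ± 284 CPM in neocortex of control mice, with overlap, and its log2 difference of -0.07 (SE 0.06) did not pass (adjusted p = 0.33 by edgeR). In KO mice the difference was -0.15 (SE 0.07; adjusted p = 0.090). Rian was lower in CA1, with log2 differences of -0.29 in control mice (SE 0.07; adjusted p = 0.0013) and -0.37 in KO mice (SE 0.07; adjusted p = 5.4e-04). Mirg was lower in CA1 too, at -0.52 in control mice (SE 0.08; adjusted p = 1.9e-05) and -0.35 in KO mice (SE 0.08; adjusted p = 0.0030).

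Rtl1 showed the widest tissue difference of the 6, at 8.83 ± 1.69 CPM in CA1 and 0.141 ± 0.0120 CPM in neocortex of control mice (SD, n = 3 each). The log2 difference was 5.93 (SE 0.24; adjusted p = 9.7e-13 by edgeR) in control mice and 5.86 (SE 0.24; adjusted p = 8.8e-13) in KO mice. Rtl1 lies opposite to maternal transcription, and the unstranded CA1 kit does not mark strand, so reads of either strand can count toward it there. The row Gm26906 also lies opposite a maternal RNA. It is annotated on the minus strand across the 3′ end of Meg3, and it held 4430 to 7015 reads in CA1 libraries and 8 to 14 reads in neocortex libraries. Its log2 difference was 9.51 (SE 0.17) in control mice, while that of the whole Meg3 row on the plus strand was -0.07. No plus-strand count was made over the bases of Gm26906 alone. How much of the Rtl1 count in CA1 comes from the opposite strand was not tested.

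Rows of miRNA hairpins, which here can only count longer RNAs that run across them, also stood higher in CA1. The 13 hairpin rows inside Mirg and on its strand summed to 3.35 to 6.01 CPM in CA1 and 0.996 to 1.58 CPM in neocortex libraries of control mice, a ratio of means of 4.01, while Mirg itself stood at a ratio of 0.699. In KO mice the same rows summed to 5.55 to 6.24 CPM in CA1 and 1.21 to 1.68 CPM in neocortex libraries, a ratio of 4.30, with 0.786 for Mirg. The 2 hairpin rows inside Meg3 gave a ratio of 5.17 in control mice, with 0.949 for Meg3 itself. Of the 13 rows inside Mirg 9 overlap an annotated Mirg exon. A row on the opposite strand inside Mirg, Gm24321, held 0 reads in every neocortex library and 1 to 13 in CA1 libraries and stayed out of these sums. The part of kit, read length or unspliced RNA in this difference was not tested.

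**Figure D5:**
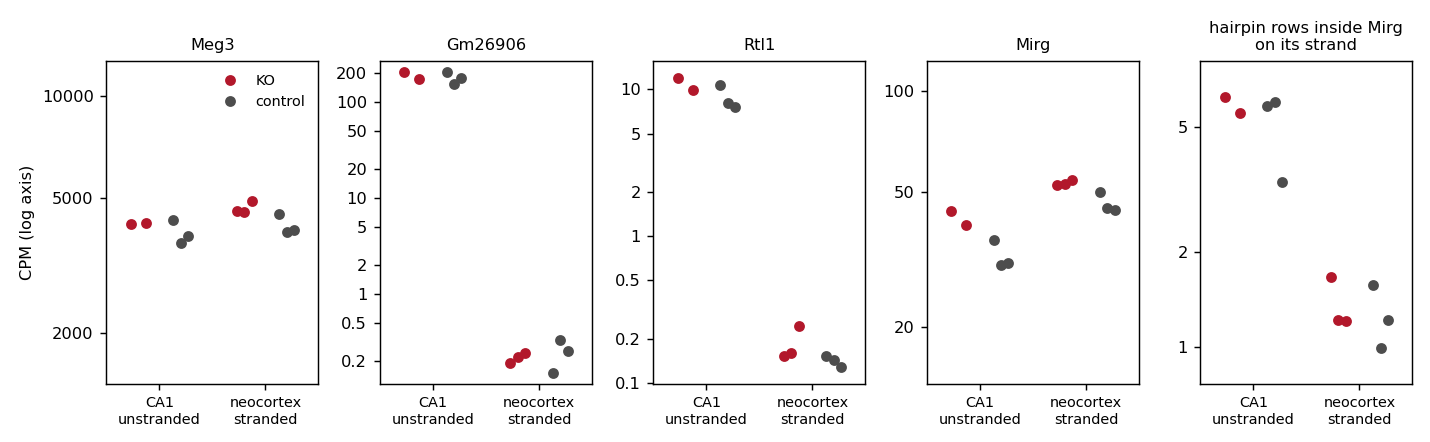
CPM on log axes in CA1 (unstranded kit, left) and neocortex (stranded kit, right) libraries for Meg3, the opposite-strand row Gm26906, Rtl1, Mirg and the sum of 13 hairpin rows inside Mirg on its strand, KO in red and control in grey. Gm26906 and Rtl1 separate the kits widely, Meg3 and Mirg only slightly.

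Gene groups linked to the domain's functions were counted in the KO fits, each against the calls over all genes given above. Of 33 other imprinted genes 1 rose in neocortex, the growth factor receptor gene Igf2r by 0.35 (SE 0.07; adjusted p = 0.016 by edgeR), in 4 of 6 fits with a library left out and not without D5132 or D5133. In CA1 4 of 34 rose and 1 fell, and with 1 library left out 2 or 3 rose (2 without D5133, D5135 or D5138). The growth factor gene Igf2 averaged 103 ± 12.3 CPM in KO and 37.9 ± 6.54 CPM in control libraries, higher by 1.45 (SE 0.14; adjusted p = 0.0021 by edgeR). The membrane protein gene Nnat averaged 134 ± 12.6 CPM in KO and 64.7 ± 10.2 CPM in control libraries, higher by 1.06 (SE 0.12; adjusted p = 0.0028). Both passed in all 5 fits with a library left out. Igf2r was higher by 0.30 (SE 0.08; adjusted p = 0.038) and passed in 1 of the 5, without D5130; it is named beyond the rule for named genes, after its value was seen. The antisense RNA Nespas passed on 14 and 8 reads in CA1 KO against 0, 1 and 0 reads in CA1 control libraries, without strand in this kit, and no fold is given. Igf2 is also on the meningeal fibroblast list and Nnat on the list of CA3 and dentate markers, which summed to 1298 to 1325 CPM in CA1 KO and 1266 to 1406 CPM in CA1 control libraries. Inpp5f, a phosphoinositide phosphatase gene, fell by 0.28 on the log2 scale (SE 0.06; adjusted p = 0.022) and passed in 1 of those 5 fits.

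Genes that maintain imprints and DNA methylation gave calls only upward, where 1.51% of all genes fitted passed in neocortex and 2.47% in CA1. In neocortex 2 of 16 rose, the de novo methyltransferase gene Dnmt3a by 0.76 (SE 0.07; adjusted p = 0.0011 by edgeR) and the methylcytosine dioxygenase gene Tet1 by 0.64 (SE 0.11; adjusted p = 0.015). In CA1 1 of 16 rose, Dnmt3a by 0.59 (SE 0.07; adjusted p = 5.0e-04). Dnmt3a passed in every fit with a library left out in both tissues, and Tet1 in 3 of 6. No methylation was measured at the domain.

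Dlk1 is related to Notch ligands, and 36 genes of that pathway were fitted. None passed in neocortex in edgeR, where 6 had an unadjusted p under 0.05 and DESeq2 called 3 higher. In CA1 3 rose, the ligand gene Jag2 by 0.52 (SE 0.10; adjusted p = 0.011), the coactivator gene Maml3 by 0.64 (SE 0.13; adjusted p = 0.017) and Lfng, a glycosyltransferase that modifies Notch, by 0.52 (SE 0.13; adjusted p = 0.042), all by edgeR. None of the 36 passed without KO D5130 or without control D5138, 1 passed without KO D5133, and in neocortex 1 passed without D5135.

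Thyroid hormone genes, the setting of Dio3, gave 1 call among 16 in neocortex, the receptor gene Thra, which fell by 0.25 on the log2 scale (SE 0.05; adjusted p = 0.020 by edgeR) and passed in 3 of 6 fits with a library left out. In CA1 none of 16 passed in edgeR, 4 had an unadjusted p under 0.05, and DESeq2 called 1 higher. Without D5134 1 of the CA1 genes rose, and without D5135 2 rose and 1 fell. Of the retrotransposon-derived relatives of Rtl1, 2 of 9 fell in neocortex, Rtl8c by 0.30 (SE 0.06; adjusted p = 0.020) and Rtl8b by 0.30 (SE 0.07; adjusted p = 0.037), and 1 of 10 fell in CA1, Rtl8b by 0.39 (SE 0.10; adjusted p = 0.046), by edgeR. Rtl8b passed in 1 of 6 neocortex fits and 0 of 5 CA1 fits with a library left out.

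Genes reported as targets of the domain's miRNAs, among them Limk1 and Pum2 of miR-134, did not pass. None of 8 passed in edgeR in either tissue, 3 in neocortex and 1 in CA1 had an unadjusted p under 0.05, and DESeq2 called 1 higher in neocortex and 0 in CA1. Their median log2 fold change was -0.05 in neocortex and -0.04 in CA1. The Mef2 factors, known to drive Mirg cluster transcription in neurons, gave 1 call, Mef2c in CA1, which fell by 0.39 on the log2 scale (SE 0.08; adjusted p = 0.020 by edgeR) and passed in 3 of 5 fits with a library left out. In neocortex 0 of 3 passed in edgeR, 0 had an unadjusted p under 0.05 and DESeq2 called 0. Among 10 miRNA biogenesis genes, the Argonaute genes Ago1 and Ago2 rose in neocortex by 0.34 (SE 0.06; adjusted p = 0.016) and 0.32 (SE 0.07; adjusted p = 0.027) by edgeR. Ago1 passed in 4 and Ago2 in 3 of 6 fits with a library left out, and neither passed without KO D5132 or D5133. None of the 10 passed in CA1 in edgeR, where 2 had an unadjusted p under 0.05 and DESeq2 called 0.

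Across libraries the genes most like Dlk1 were ranked among 14113 genes by the smaller of 2 Pearson correlations of log2 CPM, over the 6 neocortex and over the 5 CA1 libraries. The 5 closest were Plxnc1 (r = 0.990 in neocortex and 0.998 in CA1), Srrm1, Smug1, Pde4a and Knop1, none of them on chromosome 12. Mirg ranked 80, Meg3 503 and Rian 2721 for likeness to Dlk1. The closest to Meg3 were Ddx17 (r = 0.983 in neocortex and 0.946 in CA1), Usp48, 4933427D14Rik, Sprtn and Atp13a4, with Mirg at rank 76, Dlk1 at 191 and Rian at 319. These libraries share the KO and control groups, few points enter each r, and the ranks are a description.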

How the data were processed

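The members and the gene lists were chosen with earlier results of these data known. The deposited values are counts, whole numbers of reads per gene with no normalization by the authors, checked against the file. The authors named GRCm38 and the tools GSNAP, bedtools, SAMtools and FastQC, per the submitters' processing notes; versions, counting rule, strand setting and annotation are not given in the sources used here. GENCODE M21 matched 37693 of 39017 gene identifiers (96.6%), and 92 ERCC rows stayed out of library sizes.

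Each tissue's KO libraries were set against its controls by edgeR 4.0.16, run under R 4.3.3 (TMM, filterByExpr, robust quasi-likelihood F-test, Benjamini-Hochberg over all genes fitted, threshold 0.05), and CA1 with neocortex in 1 fit of the 11 libraries from 7 animals. CPM used TMM-scaled sizes of the tissue fit, or of the joint fit for the tissue contrast, and CPM per kb the union of exons. Sequences are from RefSeq, and Rtl1 sites were found by a search of its GENCODE transcript with Python 3.11.15. No 2 libraries of a group agreed within sampling noise. The tests were checked on simulated counts.

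Named genes were the 6 members, Dicer1, up to 4 genes past the threshold per list or window by smallest p, and the 5 genes most like Dlk1 or Meg3 with a mean of at least 1 CPM in each tissue (pseudocount 0.1 CPM). Alternatives were DESeq2 1.42.0, no filter on low counts, ERCC scaling, a spike-in set term, each library left out and a block for animal. The 4 animals with both tissues pair the libraries: same-animal deviations from group means correlated at 0.188 to 0.243, against -0.289 to 0.0741 between animals.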

Additional observations from a re-analysis of the deposited data

How the results depend on the processing

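The count of genes past the threshold in neocortex was 460, with 922 by DESeq2, 770 with no filter on low counts, 191 with the spike-in set as a term, and 4 with ERCC scaling. Leaving out 1 library gave 19 to 430, fewest without KO D5133, and 207, 209 and 144 without D5129, D5130 and D5132. In CA1 the count was 710, with 1467 with no filter, and 232 to 732 with 1 library left out (393 without D5130, 232 without D5133 and 244 without D5138).

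ERCC scaling moved the median of all neocortex genes to 1.06. The mean over maternal genes became 1.24 (0.153 with TMM) and over paternal genes 1.84 (0.614 with TMM). Relative to that median Dlk1 was at 1.35, Dio3 at 0.22, Meg3 at 0.21, Rian at 0.09 and Mirg at 0.23. The cause was not tested. Without KO D5133 the paternal mean in neocortex was 0.365, and without control D5134 it was 1.14 in CA1, against 0.738 with all libraries.

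With the animal as a replicate block, 8774 genes passed for CA1 against neocortex in control mice and 8123 in KO mice (9819 and 8227 without it), and the block changed no call among the 6 genes. Meg3 passed between tissues in KO mice with no filter (-0.19, adjusted p = 0.0060 by edgeR; 0.053 to 0.18 under the other alternatives). The 23 to 100 reads of Dlk1 per neocortex library, and 6 to 14 of Rtl1, limit both there.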
